A study of Mus musculus with 20 samples.

Results

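Broad domains of H3K4me3 that carry no Polycomb mark were examined in excitatory and inhibitory neurons of the adult mouse brain. The domains were chosen by peaks of 2 histone marks. Overlapping peaks of the 4 H3K4me3 libraries on chromosomes 1 to 19 and X were merged, and a merged region was kept when it was at least 3000 bp wide, held a peak of every H3K4me3 library and touched no peak of any of the 4 H3K27me3 libraries. This gave 1111 domains among 20979 regions with a peak in all 4 libraries (called shared regions here) and 345930 merged regions in all. H3K4me3 and H3K27me3 values of the domains are therefore descriptions and carry no test, while EGR1, H3K27ac and H3K4me1 played no part in the choice.

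The data are CUT&RUN peak lists, an assay in which an antibody directs a nuclease to release the DNA it is bound to in intact nuclei. Nuclei came from whole brain of 8-week-old mice of the genotype Sun1 f/f with Emx1Cre (+), which excitatory and inhibitory groups share, and were sorted by flow cytometry. The Emx1 promoter drives Cre mainly in the excitatory lineage of the dorsal forebrain. How the sort told inhibitory nuclei apart is not stated in the sources at hand. Each of 5 antibodies (H3K4me3, H3K27me3, H3K4me1, H3K27ac and EGR1) was applied to both neuron types with 2 libraries per group, 20 in all. Separate animals are not named for the paired libraries, and p-values therefore measure the spread between libraries, which may be technical. The lists hold no read counts, and the depth of each library is unknown. The measure used throughout is the percent of a region's bases that lie under a library's peaks, called coverage. It does not tell a weaker signal per cell from fewer cells with the mark.

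H3K4me3 is laid down at the starts of active genes by SET1 and MLL-type methyltransferases, which are drawn to unmethylated CpG-rich DNA. At most promoters it spans a few nucleosomes around the start, and in a minority it spreads into the gene as a broad domain, which in many cell types marks genes of cell identity or genes transcribed at a steady high rate. H3K27me3 is the mark of Polycomb repressive complex 2 and can lie beside H3K4me3 at silent developmental genes. H3K27ac marks active promoters and enhancers, and H3K4me1 flanks active promoters and covers enhancers. EGR1 is a zinc-finger transcription factor induced by neuronal activity that binds GC-rich promoters.

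Promoters of some domains are shown first, as examples. Each runs from 250 bases before to 50 bases after a RefSeq gene start in GRCm38.p6, the assembly behind mm10, and is read 5′ to 3′ on the gene's strand. Capitals mark the letters GCGTGGGCG or GCGGGGGCG, forms of the EGR1 recognition sequence, or TGACGTCA, the cyclic AMP response element (CRE), on either strand. The first 3 promoters hold EGR1 letters. Nab1 encodes a corepressor that binds EGR proteins and has 3 matches, the first at -141 from the start (chr1:52500399-52500698, minus strand). Sp3 encodes a zinc-finger factor of GC boxes, its domain (chr2:72978016-72981442) has the largest mean EGR1 coverage among domains with a named gene, and this start has 1 match at -48 (chr2:72979232-72979531, minus strand). Nr4a1 encodes an immediate early nuclear receptor and has 1 match at -60 (chr15:101266596-101266895, plus strand). The letters and the peaks do not always go together. Slc43a2, a neutral amino acid transporter, has large EGR1 coverage and no match (chr11:75531862-75532161, plus strand), and Tent4a, a non-canonical poly(A) polymerase, has neither (chr13:69533815-69534114, minus strand). Btg2, an antiproliferative activity-induced gene, has CRE letters at -166 (chr1:134079106-134079405, minus strand), and Phf8, a histone demethylase, has them at -54 (chrX:151520422-151520721, plus strand).
Nab1: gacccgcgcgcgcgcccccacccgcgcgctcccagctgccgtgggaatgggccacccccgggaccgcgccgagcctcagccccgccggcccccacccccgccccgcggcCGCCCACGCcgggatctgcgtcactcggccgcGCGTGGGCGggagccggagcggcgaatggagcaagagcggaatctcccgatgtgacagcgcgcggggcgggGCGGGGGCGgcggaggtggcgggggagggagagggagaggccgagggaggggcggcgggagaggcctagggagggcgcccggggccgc
Sp3: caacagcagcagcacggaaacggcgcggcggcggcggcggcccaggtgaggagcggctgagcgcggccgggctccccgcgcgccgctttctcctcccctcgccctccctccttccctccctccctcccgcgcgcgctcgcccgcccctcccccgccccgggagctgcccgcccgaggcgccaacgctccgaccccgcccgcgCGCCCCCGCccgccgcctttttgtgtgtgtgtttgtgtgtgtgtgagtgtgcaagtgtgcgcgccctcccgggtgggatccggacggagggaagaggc
Nr4a1: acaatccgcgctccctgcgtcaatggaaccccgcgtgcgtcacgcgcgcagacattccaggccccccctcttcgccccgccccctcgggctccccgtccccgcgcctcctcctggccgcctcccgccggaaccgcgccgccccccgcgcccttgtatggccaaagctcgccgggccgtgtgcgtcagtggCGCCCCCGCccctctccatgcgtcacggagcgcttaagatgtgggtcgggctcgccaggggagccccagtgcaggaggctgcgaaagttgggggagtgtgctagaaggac
Slc43a2: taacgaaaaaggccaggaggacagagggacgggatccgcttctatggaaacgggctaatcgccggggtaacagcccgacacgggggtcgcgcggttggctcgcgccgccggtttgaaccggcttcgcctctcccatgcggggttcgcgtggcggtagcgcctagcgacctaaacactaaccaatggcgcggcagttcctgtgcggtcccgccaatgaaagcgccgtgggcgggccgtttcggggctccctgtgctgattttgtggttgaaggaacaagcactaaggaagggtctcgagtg
Tent4a: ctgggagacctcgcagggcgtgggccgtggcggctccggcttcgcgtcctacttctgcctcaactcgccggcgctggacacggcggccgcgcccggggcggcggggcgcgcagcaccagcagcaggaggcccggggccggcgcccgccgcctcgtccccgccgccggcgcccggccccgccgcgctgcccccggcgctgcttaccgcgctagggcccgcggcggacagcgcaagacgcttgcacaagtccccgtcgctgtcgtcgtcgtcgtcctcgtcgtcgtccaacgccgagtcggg
Btg2: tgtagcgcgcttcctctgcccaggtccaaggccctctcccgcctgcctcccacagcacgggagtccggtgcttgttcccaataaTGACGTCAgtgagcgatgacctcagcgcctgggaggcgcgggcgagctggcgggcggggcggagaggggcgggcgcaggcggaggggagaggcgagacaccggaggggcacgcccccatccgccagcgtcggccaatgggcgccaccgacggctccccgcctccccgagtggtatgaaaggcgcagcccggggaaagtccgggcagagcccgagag
Phf8: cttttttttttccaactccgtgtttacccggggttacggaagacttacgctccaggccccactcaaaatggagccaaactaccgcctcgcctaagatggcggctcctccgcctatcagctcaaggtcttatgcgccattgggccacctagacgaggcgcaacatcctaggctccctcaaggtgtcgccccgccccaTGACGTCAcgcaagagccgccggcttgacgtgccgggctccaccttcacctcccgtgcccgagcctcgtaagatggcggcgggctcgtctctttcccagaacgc

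The domains were between 3000 and 5668 bp wide with a median of 3357 bp, and together covered 3876 kb. The number declined with width: 436 domains reached 3500 bp, 144 reached 4000 bp, 42 reached 4500 bp and 5 reached 5000 bp. The widest lay at Cnnm4 (chr1:36470821-36476488, 5668 bp), a magnesium transporter gene, at Ntrk2 (5510 bp), which encodes the BDNF receptor TrkB, at Tmem178b (5431 bp), at Scd2 (5148 bp), a fatty acid desaturase of brain, and at Klhl9 (5090 bp). Other wide domains lay at Gpr158 (4821 bp), at the start shared by Nlgn2, an adhesion molecule of inhibitory synapses, and Tmem256 (4861 bp), and at Ubtf (4789 bp), a factor of ribosomal RNA transcription. No gap in width set the domains apart from narrower regions. The domains at Acaa1a and Myd88, at Atg2b and Gskip and at Derl1 were exactly 3000 bp wide, and regions at Pgm2l1, Map3k3 and Stam, at 2996 bp, lay just outside.

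The word broad describes the merged region more than the peak of any library. A single H3K4me3 peak of 3000 bp or more lay in 126 domains in excitatory library 1, in 270 in excitatory library 2, in 167 in inhibitory library 1 and in 430 in inhibitory library 2. In 18 domains all 4 libraries had such a peak, and in 455 none had. The median coverage of a domain by H3K4me3 peaks was 77.3% and 85.8% in the excitatory libraries and 82.4% and 90.5% in the inhibitory libraries, in a median of 2 peaks per domain, or 1 in inhibitory library 2. By the authors' q-values, 1106, 1110, 1108 and 1111 domains held a peak with q below 0.05 in the 4 libraries, given as a description since these peaks chose the domains.

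**Figure D1:**
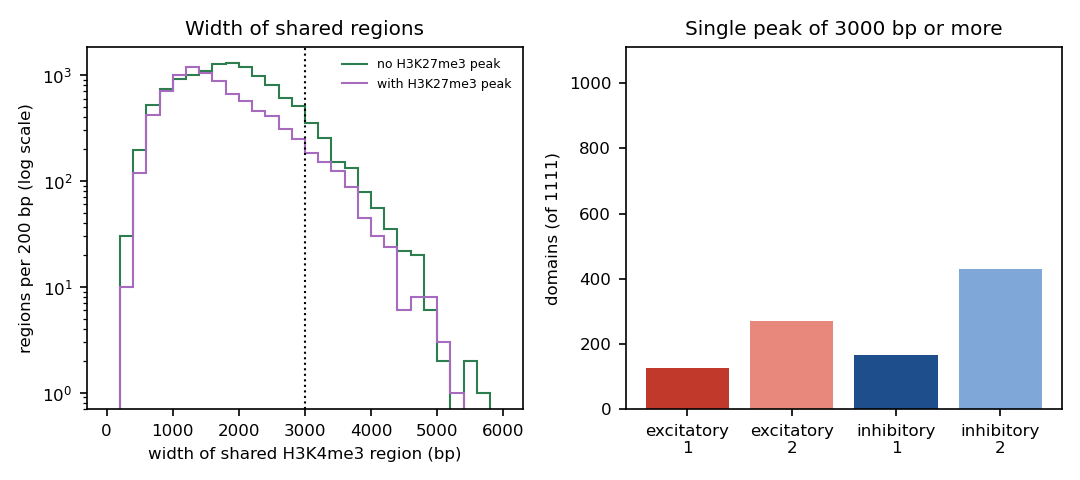
Left, the number of shared H3K4me3 regions per 200 bp of width (log scale), without and with an H3K27me3 peak, with a dotted line at 3000 bp. Right, the number of the 1111 domains in which each library has a single H3K4me3 peak of 3000 bp or more, between 126 and 430. The width distribution falls smoothly through 3000 bp, and libraries differ in how often they show a domain as 1 wide peak.

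Many domains lay near H3K27me3 peaks without touching one. Of the 1782 shared regions of 3000 bp or more, 1111 had none, 270 had one in 1 library, 199 in 2, 68 in 3 and 134 in 4. The nearest H3K27me3 peak lay at a median of 18.2 and 18.6 kb from a domain in the excitatory libraries and 6.27 and 12.1 kb in the inhibitory libraries. Taking the 4 lists together the median was 4.35 kb, and 54.0% of domains had a peak within 5 kb. Narrower shared regions without H3K27me3 (11140 regions, median 1769 bp) had one within 5 kb in 57.5% of cases.

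Most domains were promoters of single genes. A protein-coding gene started in 974 of the 1111 domains (or had an end there, where its start was unknown), 1 gene in 822 of them, 2 genes in 148 and 3 genes in 4. Where both genes of a pair had a known strand, 94 of 114 pairs (82.5%) were divergent, such as Bivm with Poglut2. Of the other 137 domains, 107 lay inside the body of a protein-coding gene, among them those in Nrxn2, a presynaptic adhesion molecule, Ank3, the ankyrin of the axon initial segment, Celf2, a splicing regulator, and Wscd2. A further 17 held an outer gene end and 13 lay outside protein-coding genes, 6 of these at an end of a long non-coding RNA gene. In all, 1124 of 21631 protein-coding genes (5.2%) were at a domain.

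The gene lists had unequal shares of members at domains, given as counts without a test. A gene was counted by its start, or by either end where its start was unknown. Domains inside a gene body, as in Rbfox3, Mapt, Snap25, Celf4, Kdm6b and Chd3, were not counted for that gene. Over all protein-coding genes 5.2% were at a domain and 57.7% at any shared region. The domain share was 23.3% for activity-regulated genes, and 20% each for housekeeping genes and chromatin-modifying enzymes. It was 18.2% for H3K4 methylation, 16% for pan-neuronal and 15.4% for glutamate receptor genes. GABA receptor and transporter genes had 11.1% and Polycomb genes 9.68%. In these lists 76% to 92.5% of members were at a shared region. The remaining lists were below 5.2%. Of 25 pan-neuronal genes, 4 were at a domain (Map2, a microtubule protein of dendrites, Syt1, the calcium sensor of vesicle release, Uchl1 and Gap43). Of 64 astrocyte, oligodendrocyte, microglia and vascular markers, 16 per list, none was, and 7, 10, 12 and 8 of them in that order lay at no H3K4me3 region of any library. All 38 HOX genes, classical Polycomb targets, were absent as well. Of these, 29 lay at no H3K4me3 region of any library, 7 at a region that was not shared and 2 at a narrower region with H3K27me3. The rule also bars any region with an H3K27me3 peak, so absence of Polycomb targets is no test. Of 25 genes that mark excitatory neurons, 1 was at a domain (Mef2c), and of 30 that mark inhibitory neurons, 1 (Satb1). At broad regions with an H3K27me3 peak lay 5 genes of the excitatory list (Cux1, Cux2, Foxp1, Sv2b and Zfpm2) and 4 of the inhibitory list (Erbb4, Maf, Nxph1 and Reln). Over all protein-coding genes 2.70% were at such a region.

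Activity-regulated genes had 7 of 30 members at domains, or 23.3%, where all protein-coding genes gave 5.2%. These were Arc, a synaptic capsid-like protein, Junb, an AP-1 subunit, Nr4a1, Btg2, Homer1, a scaffold of postsynaptic glutamate receptors, Nab1 and the GTPase gene Rheb. A further 5 (Bdnf, Egr2, Gadd45b, Jun and Nab2) lay at broad regions with H3K27me3, while Egr1 and Npas4 lay at narrower regions without it and Fos at a narrower region with it. Of 26 glutamate receptor genes, 4 were at domains, the AMPA receptor subunits Gria2 and Gria4 among them, and 7 lay at broad regions with H3K27me3. Of 18 genes for GABA receptors and transporters, Gabrb2 and Gabbr2 were at domains.

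Among chromatin genes, 8 of 40 modifying enzymes were at domains (Ep300, Hdac5, Sirt1, Smarca2, Chd4, Chd7, Dnmt3a and Tet3). Of 22 genes for H3K4 methylation, 4 were, namely Hcfc1, a subunit of SET1 and MLL complexes, Kdm5c, an H3K4 demethylase, Kdm6a, an H3K27 demethylase of MLL-type complexes, and Phf8, a demethylase that binds H3K4me3. All 4 lie on the X chromosome. None of the H3K4 methyltransferases on the list was at a domain, and 11 members of the list, Kmt2a, Kmt2b, Kmt2d and Setd1a among them, lay at narrower regions free of H3K27me3. Of 31 Polycomb genes, Aebp2, Phc2 and Asxl1 were at domains. Of 25 housekeeping genes, 5 were (Actg1, Gapdh, Ppia, Hsp90ab1 and Ywhae). Of 28 ribosomal protein genes, 26 lay at narrower regions free of H3K27me3 and 1, Rpl7, at a domain, which also holds the start of Rdh10.

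**Figure D2:**
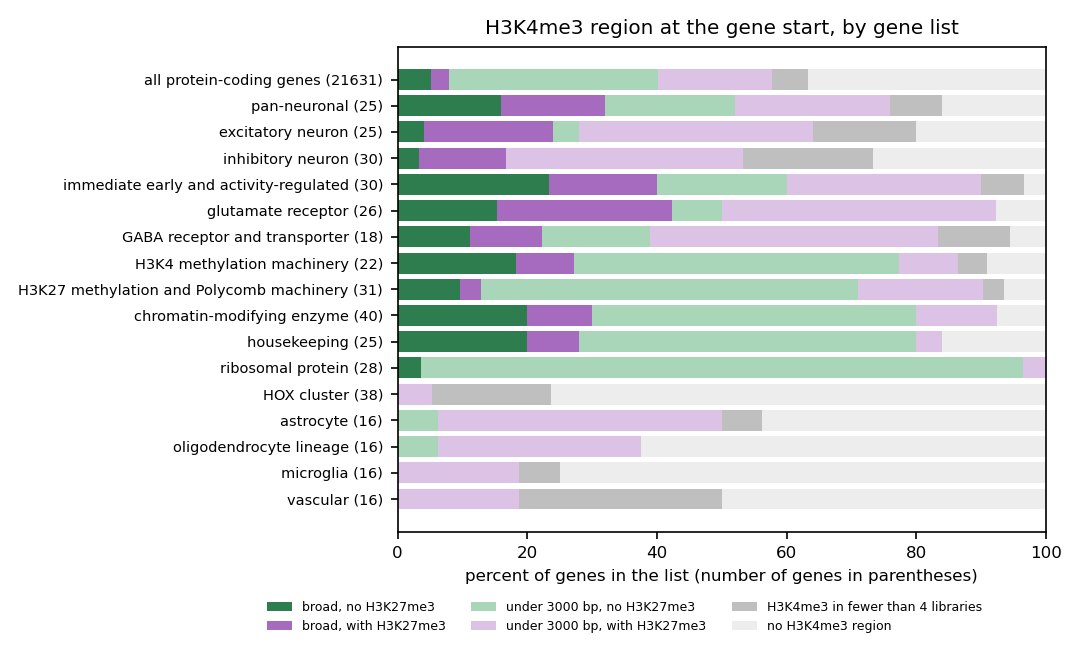
Each bar is a gene list, with its number of genes in parentheses, and shows the percent of its genes whose start lies in each class of H3K4me3 region. The dark green part, genes at the domains, is 5.2% over all protein-coding genes. It is 23.3% for activity-regulated genes, 20% each for housekeeping genes and chromatin-modifying enzymes, and is absent for HOX, glial and vascular genes.

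The X chromosome held 42 domains, 7.39% of its 568 shared regions. On the autosomes the share lay between 4.13% (chromosome 8) and 5.95% (chromosome 15). Of the broad shared regions of the X, 75% were free of H3K27me3, and on autosomes 54.0% to 70.6%. The sources used here do not give the sex of the mice.

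Around the gene start the domains were lopsided. In 568 domains with 1 gene and 1 known start, the region reached a median of 816 bp upstream and 2583 bp downstream, and it was longer downstream in 534 of them (94.0%). In 4231 narrower regions of the same kind the medians were 633 and 1326 bp, and 89.3% were longer downstream. The extra width thus lay mainly inside the gene.

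The other marks were ordered along this axis in each of the 4 libraries. EGR1 coverage was highest 150 bp upstream of the start, where 84.5% and 84.2% of domains were covered in the excitatory libraries and 78.1% and 85.4% in the inhibitory libraries, and was down to 28.6%, 29.3%, 18.9% and 24.5% at 1000 bp downstream. H3K4me3 was highest 650 to 950 bp downstream. H3K27ac was highest within 250 bp of the start, at 38.8%, 55.0%, 59.7% and 71.4%, and stayed at 31.6%, 29.1%, 45.9% and 43.6% at 1000 bp downstream. H3K4me1 ran the other way. It covered 2.97%, 5.88%, 4.26% and 2.77% of starts and was highest 2350 to 2850 bp downstream, at 50.8%, 65.2%, 57.9% and 62.4%. In the narrower regions H3K4me1 covered 15% to 22.6% of starts and was highest 1450 to 1750 bp downstream, so the H3K4me1 maximum lay farther into the gene where H3K4me3 was broader. No test was made between these classes, whose width the rule fixed.

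**Figure D3:**
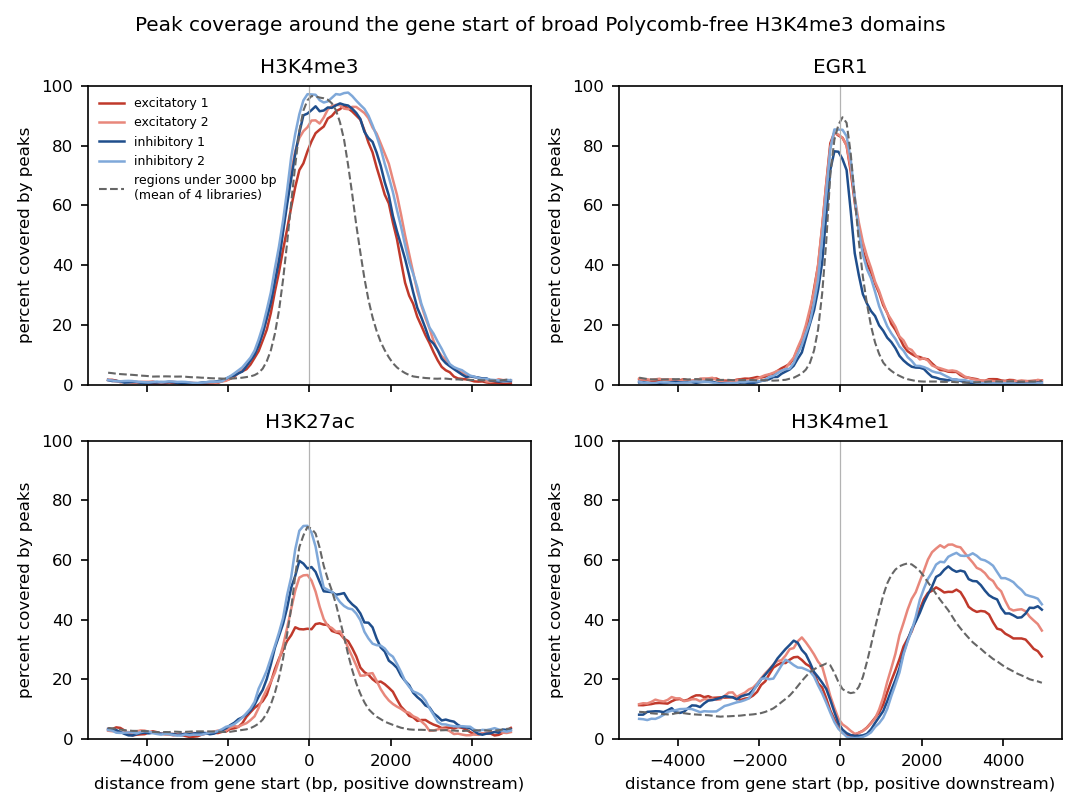
Percent of domains (568 with 1 gene start) covered by peaks of each antibody, in 100 bp steps by distance from the gene start, with 1 line per library and a dashed line for 4231 narrower regions free of H3K27me3 (mean of 4 libraries). EGR1 and H3K27ac peak near the start, H3K4me3 extends downstream and H3K4me1 is low at the start and highest 2350 to 2850 bp into the gene.

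Nearly all domains carried EGR1. A peak lay in 1093 and 1102 domains in the excitatory libraries and 1085 and 1098 in the inhibitory libraries, and 1068 domains (96.1%) had one in all 4, against 80.2% of the narrower regions and 92.3% of broad regions with H3K27me3. For every antibody a peak counted from 1 shared base, and the domains are wider than the narrower regions by the rule. At the gene start itself the order was the reverse. EGR1 covered 83.0%, 83.2%, 76.7% and 85.4% of starts in domains with 1 start, and 89.4%, 90.7%, 82.5% and 90.6% in such narrower regions. Several peaks were common: 556 and 544 domains held 2 or more in the excitatory libraries and 463 and 477 in the inhibitory. The summit of the strongest peak lay within 500 bp of the gene start in 73.9%, 72.7%, 76.3% and 79.1% of domains with 1 start. The mean EGR1 coverage of a domain was 36.5% and 37.3% in the excitatory libraries and 28.1% and 34.0% in the inhibitory libraries. The groups did not overlap, and the exact permutation test over the 4 libraries gave p = 0.33, the smallest it can give.

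EGR1 did not widen in step with H3K4me3. In domains of 3000 to 3500 bp it covered a mean of 1231, 1255, 943 and 1131 bp in the 4 libraries, and in those of 4000 bp or more 1416, 1466, 1101 and 1333 bp, which is 29.4% to 39.1% of the former and 25.4% to 33.7% of the latter. Shared regions of 1000 to 2000 bp free of H3K27me3 had 701, 702, 535 and 630 bp.

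Domains differed widely in EGR1. The largest mean coverage was at Sp3, with 70.1% and 70.1% in the excitatory libraries and 58.7% and 66.5% in the inhibitory ones. Others were Tet3, a 5-methylcytosine oxidase, with 72.6%, 72.8%, 40.1% and 58.8%, the cardiac and neuronal calcium release channel gene Ryr2 with 74.2%, 63.1%, 44.9% and 58.5%, and Zyx, a focal adhesion protein, with 46.1%, 65.8%, 63.0% and 58.3%. At the other end, 3 domains held no EGR1 peak in any library, those at Olfm1, a secreted neuronal glycoprotein, Tent4a and Map6, a microtubule-stabilizing protein. The domain in Map6 lies inside the gene body and was named after its values were seen. All 3 had H3K4me3 in every library, as the rule requires of any domain. Its coverage was 54.2%, 67.7%, 77.3% and 80.5% at Tent4a and 54.1%, 74.9%, 79.2% and 79.1% at Olfm1. At Map6 it was 88.8% and 88.6% in the excitatory libraries and 22.6% and 40.2% in the inhibitory ones. Plekho1 (0%, 5.46%, 10.6% and 16.2%), the protease gene Furin (0%, 0%, 0% and 20.2%) and Gapdh (7.07%, 4.36%, 9.29% and 20.5%) were low as well.

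EGR1 letters were in 115 of 1148 promoters at domains, in 6.30% of 6809 promoters at narrower regions free of H3K27me3 and in 4.67% of all 21045 promoters in the table. A gene can have several promoters. At domains, promoters with the letters were under an EGR1 peak in 93.9%, 92.2%, 85.2% and 93.0% of cases and those without in 89.4%, 91.4%, 85.5% and 90.5%. The share was higher with the letters in 3 libraries and lower in inhibitory library 1. At narrower regions free of H3K27me3 it was lower with the letters in all 4 libraries. There 93.0%, 93.0%, 87.2% and 93.2% of promoters with the letters were under a peak, and 94.8%, 95.6%, 91.4% and 95.4% of those without. Domain promoters had a median GC content of 65.3% and 26 CpG dinucleotides per 300 bases, against 61.3% and 22 at narrower regions and 56.7% and 13 over all promoters. Promoters at broad regions with H3K27me3 were much like them, with 66.3%, 25 CpG and EGR1 letters in 62 of 533. The ETS letters CCGGAAG were in 12.1% of domain promoters, 24.6% of narrower ones and 11.7% of all. The SP and KLF letters GGGCGGG, which can overlap the EGR1 letters, were in 53.0%, 48.9% and 34.2%, the CRE letters in 3.31%, 4.22% and 2.26%, the NRF1 letters GCATGCGC in 4.62%, 7.17% and 3.54%, the YY1 letters AAGATGGCG in 3.57%, 4.13% and 1.84%, the NF-Y letters CCAAT in 36.1%, 38.2% and 38.5% and the TATA box letters TATAAA in 4.88%, 5.58% and 12.7%. All were searched on both strands. These are matches of letters, and no binding follows from them.

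H3K27ac was also near universal, with a peak in all 4 libraries in 1015 domains (91.4%), against 70.8% of narrower regions and 78.8% of broad regions with H3K27me3. At the gene start itself the order was the reverse. It covered 36.9%, 54.0%, 57.4% and 70.3% of starts in domains with 1 start, and 51.9%, 68.5%, 77.0% and 85.8% in such narrower regions. Mean H3K27ac coverage of a domain was 28.1% and 30.7% in the excitatory libraries and 43.2% and 45.1% in the inhibitory libraries. The groups did not overlap (exact permutation p = 0.33), and the same order held in narrower regions, at 35.4% and 42.0% against 54.2% and 58.6%. H3K4me1 lay in all 4 libraries in 751 domains (67.6%), where narrower regions had 66.7% and broad regions with H3K27me3 77.0%. Its mean coverage was 20.9%, 27%, 20.3% and 19.7% inside the domains (exact permutation p = 0.33) and 33.1%, 40.5%, 39.2% and 43.0% in the 2000 bp on each side. In narrower regions the relation turned round, with 39.2%, 48.8%, 43.1% and 42.8% inside and 23.9%, 28.9%, 28.6% and 29.2% outside. Broad regions with H3K27me3 had 25.0%, 33.7%, 32.8% and 33.3% inside and 27.8%, 35.0%, 29.6% and 30.5% outside, so the inside was lower in the excitatory libraries and higher in the inhibitory ones. These H3K4me1 peaks were weak ones: counting only those whose -log10 p reached 3, 0.990%, 1.80%, 1.89% and 3.87% of domains had one. EGR1, H3K27ac and H3K4me1 were all present in all 12 libraries in 687 domains (61.8%).

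**Figure D4:**
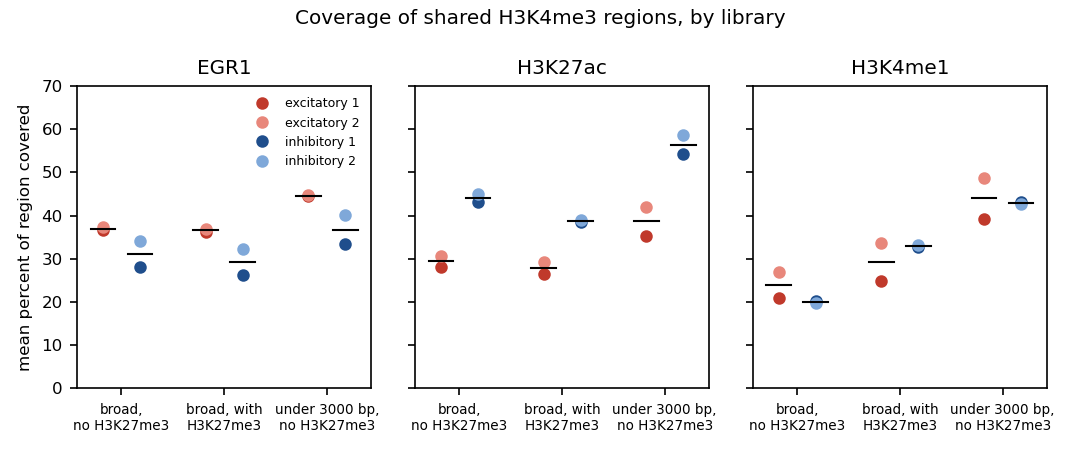
Mean percent of a region covered by peaks in each library (points) with the mean of each neuron type (bars, n = 2), for the domains, broad regions with H3K27me3 and narrower regions free of H3K27me3. Without normalization, H3K27ac is higher in both inhibitory libraries in each class, and EGR1 in both excitatory libraries.

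The neuron types were then compared domain by domain with limma on quantile-normalized coverage, fitted over all shared regions. No domain passed an adjusted p of 0.05 for EGR1 (1106 domains tested), H3K27ac (1109) or H3K4me1 (1080). Over all regions 37 of 19122 (0.193%) passed for EGR1, none of 19188 (0.0%) for H3K27ac and none of 20030 (0.0%) for H3K4me1. An unadjusted p under 0.05 was found for EGR1 in 42 domains, 11 higher in excitatory and 31 in inhibitory neurons, which is 3.80% where all regions gave 13.4%. For H3K27ac there were 30 such domains (14 and 16), or 2.71% against 14.6%, and for H3K4me1 108 (67 and 41), or 10% against 12.4%. Without quantile normalization the counts by direction were 86 and 2 for EGR1, 2 and 111 for H3K27ac and 88 and 31 for H3K4me1, so the balance for EGR1 turned round. The median normalized difference, excitatory minus inhibitory, was -3.86 percentage points for EGR1 in domains and -1.90 over all regions. Not normalized, the same medians were 5 and 7.43, the opposite sign. For H3K27ac they were -0.05 and -0.23, and -15.2 and -15.3 without normalization, and for H3K4me1 0.51 and -0.14, and 3.28 and 0.00. No direction over the domains as a whole was stable for any of the 3 antibodies, since with 1 library left out the H3K27ac median lay between -3.48 and 4.34 percentage points and the H3K4me1 median between -0.83 and 1.88.

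Without normalization, domains whose libraries did not overlap between types can be counted. For EGR1 both excitatory libraries were above both inhibitory ones in 457 domains (41.1%) and below in 64 (5.76%), where all shared regions gave 38.9% and 6.93%. For H3K27ac the counts were 43 (3.87%) and 601 (54.1%), against 8.86% and 40.8%, and for H3K4me1 323 (29.1%) and 184 (16.6%), against 20.4% and 18.7%. H3K4me3 itself, given as a description since it chose the domains, was higher in both excitatory libraries in 170 domains (15.3%; all regions 22.0%) and in both inhibitory ones in 372 (33.5%; all regions 25.0%).

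For EGR1, the smallest p among domains belonged to Ctif, a translation initiation factor, with 84.3% and 80.7% in the excitatory libraries and 30.1% and 35.1% in the inhibitory libraries (normalized difference 39.7 ± 6.30 percentage points, SE, adjusted p = 0.0899 by limma). Gse1 had 55.6% and 74.5% against 15.8% and 23.7% (adjusted p = 0.160 by limma), and the activin receptor gene Acvr2a 49.0% and 67.2% against 11.7% and 29.5%. In the other direction Nudt4 had 27.5% and 25.8% against 35.0% and 49.1% (adjusted p = 0.212 by limma), and Nrcam, a neuronal adhesion molecule, 40.3% and 35.5% against 50.6% and 52.0%. The libraries of the types did not overlap in any of these, but choosing domains by p favours this.

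For H3K27ac the activity-regulated genes Arc and Btg2 were among the domains with the smallest p. The Arc domain (chr15:74669480-74672951) had no H3K27ac peak in either excitatory library and 46.5% and 53.1% in the inhibitory ones (normalized difference -39.8 ± 11.8 percentage points, SE, adjusted p = 0.212 by limma). The Btg2 domain (chr1:134076066-134079665) had 9.31% and 8.08% against 54.7% and 66% (adjusted p = 0.293 by limma). Zfp532 had 16.6% and 24.0% against 77.4% and 91.1%, and Cntnap2, a neurexin-family adhesion molecule, 15% and 31.2% against 77.0% and 71.0%. Higher in the excitatory libraries were Cadm3, a synaptic adhesion molecule, with 35.3% and 48.3% against 0% and 18.2% (adjusted p = 0.196 by limma), and Shf with 57.2% and 64.8% against 34.9% and 34.5%.

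The activity-regulated domains did not form a single pattern. In EGR1, Arc had no peak in the excitatory libraries and 12.5% and 21.5% in the inhibitory, while Btg2 had 34.8% and 31.4% against 10.4% and 17.2%. Homer1 had similar EGR1 in all 4 libraries, at 44.9%, 38.5%, 36.9% and 44.4%. H3K27ac at Nr4a1 was 15.5% and 12.1% against 48.1% and 35.0%, and at Rheb 8.37% and 28.8% against 62.0% and 58.4%. Nab1 ran the other way, with 46.3% and 30.1% against 26.5% and 17.6%. H3K27ac was higher in both inhibitory libraries in 40.8% of shared regions and 54.1% of domains. It was higher in both excitatory libraries in 8.86% and 3.87%. The direction at Arc, Btg2, Nr4a1 and Rheb is thus also the more common one. The Homer1 domain (chr13:93302937-93306308) had H3K4me3 coverage of 28.3% and 31.3% in the excitatory libraries and 67.6% and 97.0% in the inhibitory libraries.

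**Figure D5:**
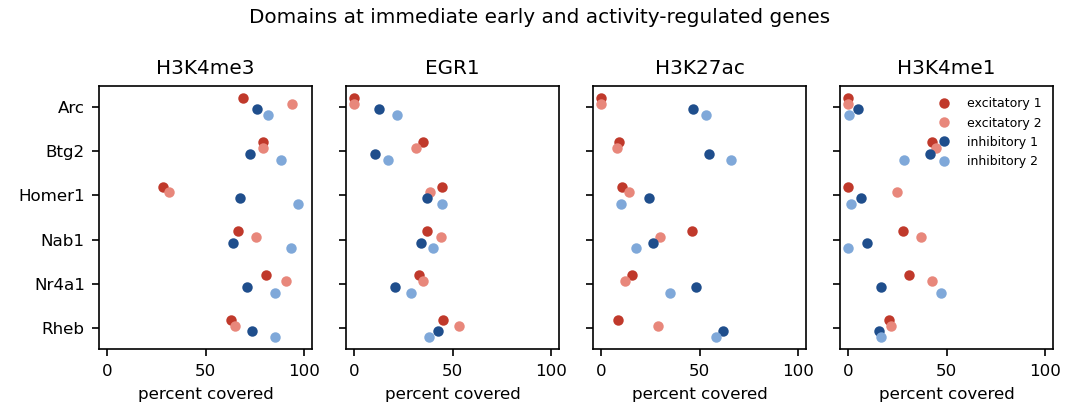
Coverage of 6 domains at activity-regulated genes by H3K4me3, EGR1, H3K27ac and H3K4me1, 1 point per library. H3K27ac at Arc, Btg2, Nr4a1 and Rheb is higher in both inhibitory libraries, and H3K4me3 at Homer1 is 28.3% and 31.3% in the excitatory libraries and 67.6% and 97.0% in the inhibitory libraries.

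For H3K4me1 the domains with the smallest p had little or no coverage in the libraries of one type. Smg1, a kinase of nonsense-mediated decay, had 44.0% and 56.1% in the excitatory libraries and no peak in the inhibitory ones (normalized difference 49.6 ± 7.87 percentage points, SE, adjusted p = 0.347 by limma). The widest domain, at Cnnm4, had 48.0% and 51.6% against 0.441% and 0%, and Adam10, the protease that sheds Notch and amyloid precursor protein, 29.7% and 47.8% against none. Higher in the inhibitory libraries were Pitpnm2 (0% and 9.40% against 92.2% and 66.8%), Mef2c, a transcription factor of neuronal differentiation (6.75% and 0% against 42.8% and 48.2%), Map2 (0% and 9.90% against 32.5% and 35.3%) and the homeobox gene Pknox2 (0% and 3.02% against 38.3% and 37.1%). All had an adjusted p of 0.347 by limma.

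H3K4me3 coverage of single domains was unequal between the types as well, which is given without a test. Chosen after their values were seen, Rilpl1 had 85.4% and 88.4% in the excitatory libraries and 43.4% and 44.2% in the inhibitory libraries, Pde4b, a cyclic AMP phosphodiesterase, 70.8% and 90.7% against 42.9% and 48.4%, and Smarcd1, a subunit of the BAF remodelling complex, 92.2% and 95.9% against 55.1% and 62.2%. Ifitm10 had 51.6% and 49.8% against 94.6% and 96.3%, and Atp1b1, a subunit of the sodium pump, 45.8% and 38.6% against 76.2% and 86.5%. Means 20 or more percentage points apart with no overlap were found in 57 of 1111 domains toward excitatory and 129 toward inhibitory neurons. All shared regions gave 2263 of 20979 (10.8%) and 2937 (14.0%). H3K4me3 peaks and width chose the domains, so no difference between domains and other regions is read from these counts.

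Among other genes in the lists, Gria2 and Uchl1 had unequal H3K4me3 in opposite directions. Gria2 had 56.0% and 56.5% in the excitatory libraries and 87.2% and 87.9% in the inhibitory libraries, and Uchl1 64.5% and 93.2% against 47.0% and 53.2%. Satb1, a chromatin organizer on the inhibitory list, had 74.5% and 81.9% against 83.9% and 78.6% in H3K4me3, which overlapped, and 14.0% and 19.7% against 66.9% and 51.4% in H3K27ac. Of the X-linked genes, Kdm6a had nearly level H3K4me3 (71.4%, 73.2%, 74.4% and 71.5%), and Hcfc1 had nearly level EGR1 (42.5%, 42.3%, 42.4% and 42.4%).

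Domains also held microRNA genes. Of 1005 hairpins in the RefSeq table, 16 (1.59%) lay in 16 domains. One is Mirlet7i, a member of the let-7 family, whose members are abundant in brain and share their seed; it was picked from the 16 after they were seen. Its domain (chr10:122982982-122986132, 3151 bp) had H3K4me3 coverage of 75.2%, 78.1%, 96.6% and 97.5% and EGR1 coverage of 14.7%, 22.6%, 14.1% and 18.3%. The mature sequence of let-7i-5p is shown with its seed, bases 2 to 8, in capitals.
let-7i-5p: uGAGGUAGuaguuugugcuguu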

How the data were processed

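CUT&RUN libraries were made from sorted nuclei with the CUTANA CUT&RUN and NEBNext Ultra II kits, per the labels' protocols. Per the submitters' processing notes, the build was mm10 and the tools included MACS2 2.2.5, SAMtools 1.12, Picard 2.25.0, Bowtie2 2.3.5, Trim Galore 0.5.0 and cutadapt 1.18, whose settings are not stated. Each library has its own deposited peak list, which gives for every peak a fold enrichment (a ratio), -log10 p-value, -log10 q-value and an integer score; fold and score entered no test. Peaks were used at the deposited threshold. Replicate numbers are those of the labels, although the EGR1 peak names hold 3 and 4.

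Coverage was computed with Python 3.11.15 and numpy 2.4.6 in 1-based mm10 positions, quantile-normalized over the 4 libraries of an antibody and entered into a limma 3.58.1 model (R 4.3.3; lmFit, then eBayes using a trend) for shared regions with 1 or more covered bases in at least 2 libraries. Adjusted p-values are Benjamini-Hochberg over all regions tested, two-sided; levels are not normalized. The fit was tested on simulated data. Gene starts came from RefSeq promoters (17274 genes, of which none on chromosome 18); for 4357 other protein-coding genes either gene end was used. The domains and gene lists were chosen with earlier results of these data known. Domains named are the widest, those next to 3000 bp, up to 5 per antibody and direction in order of p where none passed, up to 6 per gene list, and the 10 highest and lowest in EGR1; exceptions are stated. Alternatives are listed in the closing section. A few genes and 1 promoter sequence are not reported here.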

Additional observations from a re-analysis of the deposited data

How the results depend on the processing

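The number of domains followed the definition. A minimum width of 2000 bp gave 5199, one of 4000 bp gave 144, and a single peak of 3000 bp or more in each library gave 18. H3K27me3 peaks with -log10 p of at least 2 gave 1574, and leaving out 1 replicate gave 916 to 1097. With 1 replicate left out, 852 to 992 of the 1111 domains still overlapped a domain. The count of domains called between neuron types stayed at 0 for EGR1, H3K27ac and H3K4me1 under every other normalization, filter, scale, window and replicate left out, except that a fit over regions with a peak in at least 2 libraries called 15 domains for H3K4me1 (11 higher in excitatory, 4 in inhibitory neurons); the cause was not tested. With H3K4me1 peaks of -log10 p of at least 3, 9 domains could be tested. Of 368 values for the named domains, 365 kept their direction and side of the threshold and 3 (H3K4me1 at Smg1, Adam10 and Pknox2) came to pass it in that same fit. Median differences over the domains were less stable. With 1 library left out they lay between -3.48 and 4.34 for H3K27ac and between -0.83 and 1.88 for H3K4me1, both turning sign, and between -5.33 and -2.30 for EGR1. Over regions with a peak in at least 2 libraries they were 10.96, 4.29 and -10.4 in that order, and with equal numbers of peaks 2.53, 9.64 and -0.83. Using peaks whose -log10 p reached 3 gave 8.03 for H3K27ac, and no normalization gave 5 for EGR1. Same-numbered replicates did not deviate together in coverage (correlations of 0.0063, 0.041 and 0.014 over shared regions for EGR1, H3K27ac and H3K4me1). These correlations cannot tell whether same-numbered libraries share animals or a preparation, which is unknown. The main fit therefore used the numbers only as names. With the replicate block 0 domains were called for each antibody. Depth is unknown, so an absent peak may lie below detection.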
